A study of Mus musculus with 14 samples.

Results

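The genes described here are Tmem176a, Tmem176b, Ms4a7, Ms4a4c, Ms4a6b, Ms4a6c and Ms4a6d, 7 of the 43432 genes in the expression table. They were chosen by symbol from a list drawn up with earlier results of these libraries in view, so their own levels and differences are given below as a description. Counts of them that passed limma's test stand beside the share of all genes that passed and support nothing. RNA was sequenced from lung cells of male 129S1 mice aged 10 to 12 weeks that had received bleomycin (3 U/k), a DNA-damaging drug used to provoke lung fibrosis, or water into the trachea. Cells were sorted as SiglecF-positive and CD11c-positive, the surface pattern of alveolar macrophages, and divided by their surface level of MHC class II (MHCII). There were 3 libraries each of MHCII-high and MHCII-low cells 2 weeks after bleomycin, 3 of each 4 weeks after it, and 2 libraries of MHCII-low cells from control mice, labelled as replicates 1 and 3. MHCII-high cells of control mice were not analysed here. All groups share the strain, the sex, and the SiglecF and CD11c gate. The labels do not say whether libraries of a group came from separate animals, so p-values measure the spread between these libraries.

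MS4A proteins cross the cell membrane several times and have both ends inside the cell. The family is best known through MS4A1 (CD20), a B-lymphocyte surface protein, and MS4A2, a chain of the high-affinity IgE receptor. Several other members are expressed in macrophages and monocytes, where they sit beside pattern-recognition and Fc receptors and affect their signalling. TMEM176A and TMEM176B are related multi-pass proteins of intracellular vesicles. They have been described as cation channels in antigen-presenting cells, and TMEM176B as a restraint on the inflammasome.

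Tmem176a and Tmem176b lie head to head on chromosome 6 of the mouse build GRCm38, where the mm10 assembly named in the submitters' processing notes has the same coordinates. Tmem176b covers chr6:48833818-48841496 on the minus strand and Tmem176a covers chr6:48840919-48847071 on the plus strand. The genes overlap, and 81 exonic bases belong to both, 2.1% of the exonic bases of Tmem176a and 3.4% of those of Tmem176b. The 5 Ms4a genes lie within 283.8 kb of chromosome 19: Ms4a7 at chr19:11321039-11336146 (minus strand), Ms4a4c at chr19:11404770-11427246 (plus), Ms4a6c at chr19:11469366-11482192 (plus), Ms4a6b at chr19:11516512-11531256 (plus) and Ms4a6d at chr19:11586604-11604849 (minus). All 7 are annotated as protein-coding, and their spans in the deposited table equal those of the GENCODE annotation of GRCm38.

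Promoter windows, from 250 bases before to 50 bases after an annotated start, were found in RefSeq (GRCm38.p6) for 6 of the 7 genes, 10 windows in all. The window of Tmem176b at chr6:48841325-48841624 (minus strand, start site at base 48841374) is shown because it overlaps both windows of Tmem176a, at chr6:48841233-48841532 and chr6:48841406-48841705. The windows of Ms4a6b, chr19:11518309-11518608, and Ms4a6c, chr19:11469118-11469417, both on the plus strand, are shown because they hold a long run of bases in common. Capitals mark the letters GAGGAAG, a sequence recognised by the myeloid factor PU.1, in the Tmem176b window, and the longest run of bases shared by the Ms4a6b and Ms4a6c windows.
Tmem176b: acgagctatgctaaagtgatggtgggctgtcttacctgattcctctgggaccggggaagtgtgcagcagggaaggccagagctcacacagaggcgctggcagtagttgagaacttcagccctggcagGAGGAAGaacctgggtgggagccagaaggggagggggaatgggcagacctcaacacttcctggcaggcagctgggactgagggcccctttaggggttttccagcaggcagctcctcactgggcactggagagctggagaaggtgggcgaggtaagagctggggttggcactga
Ms4a6b: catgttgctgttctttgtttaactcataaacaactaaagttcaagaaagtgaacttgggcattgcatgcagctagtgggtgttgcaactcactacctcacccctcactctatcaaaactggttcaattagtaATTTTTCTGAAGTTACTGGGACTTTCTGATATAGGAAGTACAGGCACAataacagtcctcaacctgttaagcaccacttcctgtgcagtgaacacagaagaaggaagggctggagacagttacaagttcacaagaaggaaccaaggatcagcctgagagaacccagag
Ms4a6c: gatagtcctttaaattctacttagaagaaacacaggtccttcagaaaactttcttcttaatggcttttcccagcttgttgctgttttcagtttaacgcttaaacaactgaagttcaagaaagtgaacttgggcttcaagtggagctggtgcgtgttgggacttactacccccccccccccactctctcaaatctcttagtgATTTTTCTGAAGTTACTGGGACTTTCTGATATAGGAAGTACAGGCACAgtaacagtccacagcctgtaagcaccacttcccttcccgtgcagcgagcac
The same 7 bases, 48841491 to 48841497 of chromosome 6, were the match in the shown window and in both Tmem176a windows, so 3 of the 10 windows held GAGGAAG on either strand through a single stretch of DNA. Of all 32851 RefSeq windows, 13.6% held it. The shared run of Ms4a6b and Ms4a6c was 48 bases long, and no window other than those of these genes held it among the 32851. It ended 71 bases before the start site of Ms4a6b and 2 bases before that of Ms4a6c. Aligned end to end, these windows had 64.0% of their bases identical, against 51.0% to 57.7% for the other pairings of windows from different Ms4a members. In the downstream window of Ms4a7, chr19:11334646-11334945, TGANTCA (AP-1) and CCAAT (NF-Y) were present, which 7.8% and 37.4% of all windows hold. None of the 10 windows held, on either strand, the interferon response element, which 3.4% of all windows hold, or TTGCNNAA (C/EBP), which 10.8% hold. The letters TGCTGA, a core of MAF sites, were likewise in none, beside 19.5% of all windows. For AGGTCA, read by nuclear receptors, and for the TATA letters TATAAA the count was also 0, beside 16.3% and 13.6%. These letters hold for the reference genome, not for the 129S1 mice, and a match describes the sequence alone.

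Values below are normalized counts, which the authors made from gene counts, and differences are of log2(normalized count + 1) with the standard error (SE) of a limma fit to all 14 libraries. Adding 1 understates the differences of low genes. The libraries held 15106415 to 88059618 reads recovered from the values, of which 3.12% to 28.99% were mitochondrial ribosomal RNA. Replicate 3 of the MHCII-high cells at 4 weeks stood apart, at 146.4 units along the second principal component of all tested genes (12.3% of the variance), where no other library was beyond 73.5. The alveolar macrophage list (18 genes) summed to 447200 to 823600 normalized counts over the 14 libraries, so the labelled cell type was present in each. A difference in RNA level in sorted, pooled cells does not tell more RNA per cell from more cells that hold it.

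Both Tmem176 genes were low in all MHCII-low libraries and high in all MHCII-high libraries. Tmem176b read 29.6 and 44.8 normalized counts in the control libraries. In MHCII-low cells it read 87.3, 28.7 and 55.6 at 2 weeks and 97.8, 184.3 and 26.7 at 4 weeks. In MHCII-high cells it read 818.1, 707.8 and 1009.5 at 2 weeks and 678.5, 1140.6 and 1141.7 at 4 weeks. The lowest MHCII-high library was thus above the highest MHCII-low library, with no overlap at either time. The MHCII-high mean was 14.8 times the MHCII-low mean at 2 weeks and 9.59 times at 4 weeks, log2 differences of 3.98 ± 0.56 and 3.59 ± 0.56 (SE, n = 3 against 3). Among the MHCII-low groups the order was control, 2 weeks, 4 weeks, and the ranges of all 3 overlapped.

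Tmem176a read 50.6 and 65.4 in the controls. In MHCII-low cells it read 40.3, 20.7 and 27.0 at 2 weeks and 105.5, 102.9 and 58.6 at 4 weeks. The MHCII-high libraries read 820.2, 552.9 and 522.1 at 2 weeks and 466.2, 205.5 and 517.3 at 4 weeks. Its level in MHCII-low cells was lowest at 2 weeks, below both controls and below every library at 4 weeks. In MHCII-high cells all 3 libraries at 2 weeks were above all 3 at 4 weeks, but only just (522.1 against 517.3). The change there was -0.75 ± 0.49 on the log2 scale and did not pass (limma adjusted p = 0.53). The gap between MHCII-high and MHCII-low cells was 21.5-fold (log2 4.40 ± 0.49) at 2 weeks and 4.45-fold (log2 2.08 ± 0.49) at 4 weeks, and the groups overlapped at neither time. The second gap was smaller by 2.32 ± 0.69 on the log2 scale. Without the MHCII-high library that stood apart, the difference at 4 weeks was 1.84 for Tmem176a and 3.47 for Tmem176b. The 4-week difference of Tmem176b depended more on the MHCII-low libraries: it was 2.83 without replicate 3 and 4.20 without replicate 2.

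**Figure D1:**
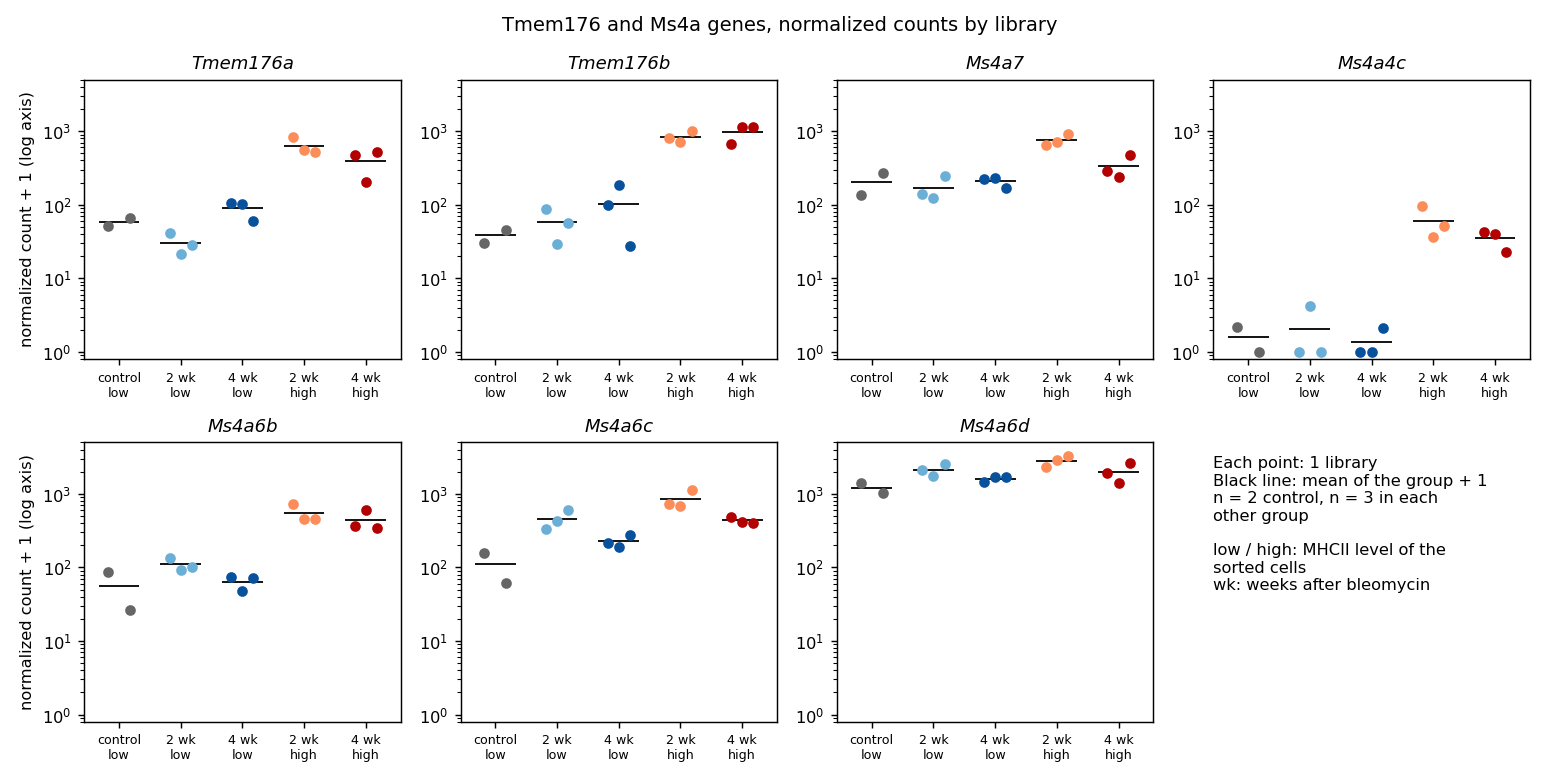
Normalized counts + 1 (log axis) of the 7 genes in each library, with a line at the mean of each group (n = 2 for control, n = 3 for the others). The MHCII-high points lie above the MHCII-low points of the same time for every gene except Ms4a6d, whose groups overlap.

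The overlapping neighbours did not move in fixed proportion. Tmem176b was counted at 0.456 to 2.21 times Tmem176a in 13 libraries and at 5.55 times in replicate 2 of the MHCII-high cells at 4 weeks, where Tmem176a was lowest of its group (205.5) and Tmem176b was near the top (1140.6). Within the 6 MHCII-high libraries Pearson's r between the genes on the log2 scale was -0.47, and within the 8 MHCII-low libraries it was 0.56, both given as descriptions. The labels state no strand setting for the counts, so reads from the 81 shared bases cannot be told apart.

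**Figure D2:**
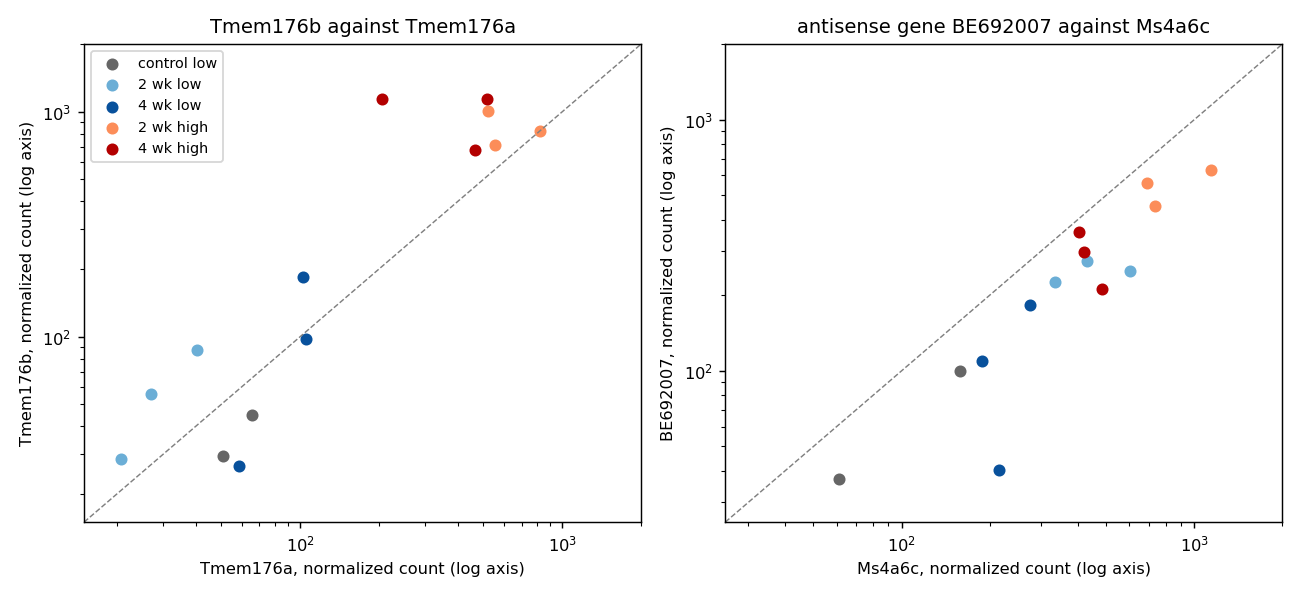
Tmem176b against Tmem176a (left) and the antisense gene BE692007 against Ms4a6c (right), normalized counts on log axes, 1 point per library, with a dashed line at equal counts. On the left, the 4-week MHCII-high point at a Tmem176a count of 205.5 is the library where the Tmem176 genes part, and BE692007 lies below Ms4a6c in all 14 libraries.

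Ms4a7, a macrophage gene often used to mark monocyte-derived and border-tissue macrophages, was high in MHCII-high cells at 2 weeks and lower again at 4 weeks. It read 134.8 and 266.9 in the controls. In MHCII-low cells it read 138.7, 122.6 and 242.8 at 2 weeks and 219.5, 229.4 and 169.5 at 4 weeks. The MHCII-high libraries read 649.8, 710.2 and 920.1 at 2 weeks, then 289.3, 233.8 and 474.7 at 4 weeks. The MHCII-high excess was 4.52-fold (log2 2.22 ± 0.38) at 2 weeks and 1.61-fold (log2 0.63 ± 0.38) at 4 weeks, where the lowest MHCII-high library was barely above the highest MHCII-low one. From 2 to 4 weeks the MHCII-high level changed by -1.24 ± 0.38 on the log2 scale, with no overlap, and the MHCII-low level by 0.35 ± 0.38, with overlap. Without the library that stood apart, the 4-week excess was 0.35.

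Ms4a4c was close to the counting limit in MHCII-low cells and clearly counted in MHCII-high cells. It read 1.2 and 0 in the controls, 0, 3.2 and 0 in the MHCII-low libraries of 2 weeks, and 0, 0 and 1.1 at 4 weeks. The MHCII-high libraries read 94.2, 35.2 and 50.4 at 2 weeks and 41.6, 39.2 and 21.9 at 4 weeks. It passed the filter of 10 normalized counts through the 6 MHCII-high libraries alone. The ratio of group means, the measure used for the other genes, was 56.2 at 2 weeks and 93.4 at 4 weeks. Pooled over the libraries of a group, recovered reads were 284 against 2 at 2 weeks and 63 against 1 at 4 weeks. MHCII-high replicate 1 gave 183 of the 284. Depth-adjusted ratios of these pooled reads were 95.1 (exact 95% interval 26.1 to 789.4) and 101.5 (17.6 to 4071). These intervals take reads as units and cover counting error only, not the spread between libraries. On the log2 scale the 2-week difference was 5.12, and 5.81 without MHCII-low replicate 2.

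Of the 3 Ms4a6 genes described here, Ms4a6b followed the MHCII gate. It read 85.7 and 25.8 in the controls, 134.2, 92.4 and 100.8 in the MHCII-low libraries of 2 weeks, and 72.0, 47.1 and 70.4 at 4 weeks. In MHCII-high cells it read 720.9, 451.4 and 454.4 at 2 weeks and 370.5, 605.6 and 343.2 at 4 weeks. The groups did not overlap at either time, and the excess was 4.97-fold (log2 2.28 ± 0.47) and 6.96-fold (log2 2.76 ± 0.47). The MHCII-low cells at 2 weeks were above both controls, by 1.17 ± 0.53 on the log2 scale. This value was 0.33 without control replicate 3 and 2.02 without control replicate 1.

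Ms4a6c was graded across both the gate and the time after bleomycin. It read 157.8 and 61.1 in the controls. In MHCII-low cells it read 333.4, 428.3 and 605.1 at 2 weeks and 215.2, 188.2 and 274.0 at 4 weeks. Levels in MHCII-high cells were 736.3, 690.6 and 1137.3 at 2 weeks and 484.9, 418.9 and 404.1 at 4 weeks. From low to high the order of means was control, MHCII-low at 4 weeks, MHCII-high at 4 weeks, MHCII-low at 2 weeks and MHCII-high at 2 weeks, and of these neighbours the MHCII-high cells at 4 weeks and the MHCII-low cells at 2 weeks overlapped. The MHCII-low mean at 2 weeks was 4.16 times the control mean (log2 2.16 ± 0.40), and at 4 weeks 2.06 times (log2 1.17 ± 0.40). Against those values, MHCII-high exceeded MHCII-low by 0.91 ± 0.36 at 2 weeks and 0.96 ± 0.36 at 4 weeks on the log2 scale. The differences from control depended on which control library was kept. Without control replicate 3 they were 1.48 at 2 weeks and 0.50 at 4 weeks, and without control replicate 1 they were 2.84 and 1.85.

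Ms4a6c shares DNA with another counted gene. The antisense gene BE692007, at chr19:11470166-11484578 on the minus strand, covers 1088 of the 2050 exonic bases of Ms4a6c (53.1%). BE692007 was counted at 0.187 to 0.883 times Ms4a6c, with 37.0 and 99.7 normalized counts in the controls and 452.8 to 628.1 in MHCII-high cells at 2 weeks. It did not pass limma's test in any comparison between groups, with its smallest adjusted p at 0.064 for MHCII-low cells at 2 weeks against control (log2 2.02 ± 0.55). Reads from the shared bases cannot be assigned to either gene without strand. Of the 50-base words of the exons, 51.37% in Ms4a6c, 8.19% in Ms4a4c, 3.57% in Ms4a6b and 2.54% in Ms4a6d occurred in another gene, against under 0.5% in Ms4a7 and each Tmem176 gene. For Ms4a4c most of these were shared with Ms4a4b (7.73%).

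Ms4a6d, which has been linked to inflammasome signalling in macrophages, had the highest level per kilobase of the 7 genes in every group and the smallest differences between MHCII-high and MHCII-low cells. It read 1421.8 and 1016.7 in the controls. In MHCII-low cells it read 2130.0, 1759.6 and 2526.2 at 2 weeks and 1448.4, 1683.4 and 1702.7 at 4 weeks. In MHCII-high cells it read 2307.1, 2886.0 and 3299.7 at 2 weeks and 1916.8, 1397.9 and 2599.8 at 4 weeks. The MHCII-high and MHCII-low libraries overlapped at both times, with log2 differences of 0.40 ± 0.22 and 0.25 ± 0.22. MHCII-low cells at 2 weeks were above both controls (log2 0.81 ± 0.25). Ms4a6c and Ms4a6d varied together within each class, with Pearson's r of 0.70 over the 6 MHCII-high and 0.93 over the 8 MHCII-low libraries, which share differences in depth and time.

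**Figure D3:**
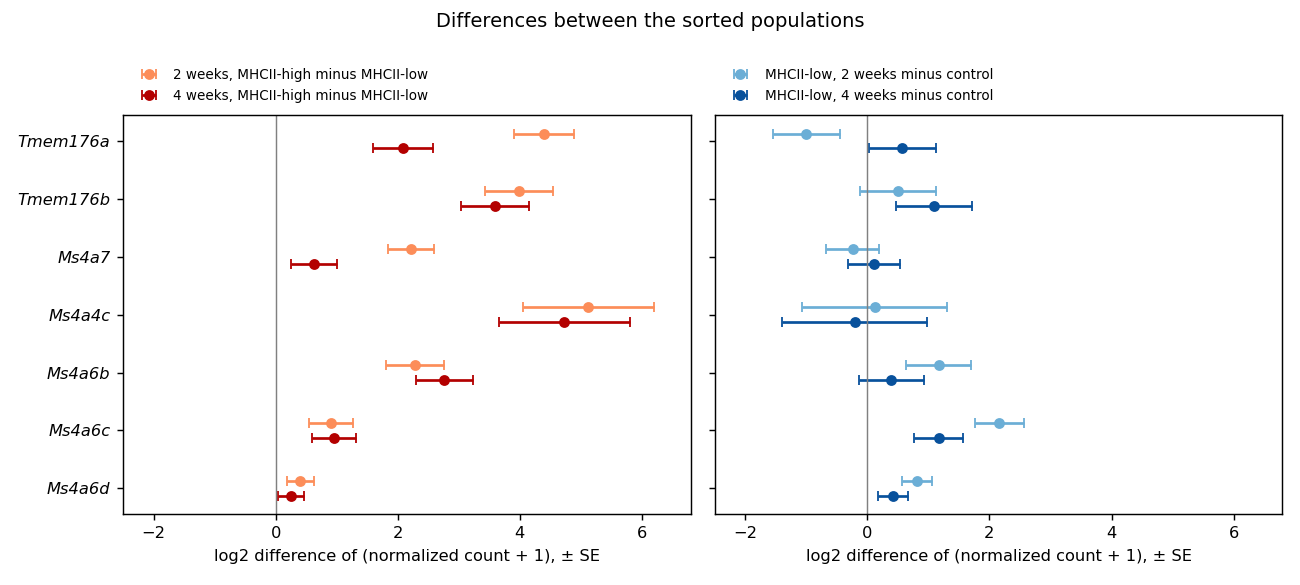
Log2 differences ± SE of the 7 genes, MHCII-high minus MHCII-low (left) and MHCII-low after bleomycin minus control (right). The differences on the left run from 5.12 for Ms4a4c down to 0.25 for Ms4a6d, and on the right that of Ms4a6c at 2 weeks, 2.16, lies farthest from 0.

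At an adjusted p of at most 0.05 in limma, 5 of the 7 genes were called higher in MHCII-high cells at 2 weeks (Tmem176a, Tmem176b, Ms4a7, Ms4a6b and Ms4a4c), where 2.29% of the 17390 tested genes were called higher. At 4 weeks 4 were called (Tmem176a, Tmem176b, Ms4a4c and Ms4a6b), beside 1.96% of all genes. Groups did not overlap for 6 of the 7 at each time, all higher in MHCII-high, beside 12.9% of all genes at 2 weeks and 8.26% at 4 weeks. Since the genes were picked with such results known, these counts describe the choice. Ms4a4c also entered the test only through the MHCII-high libraries, where it is high, so nothing is read from its place in both counts. Of the calls, that of Tmem176a at 4 weeks was lost without MHCII-low replicate 2 or 3 or MHCII-high replicate 1 or 3 of that time. The call of Ms4a4c at 2 weeks was lost without replicate 1 of either class, and at 4 weeks without MHCII-low replicate 1 or 2. That of Ms4a6b at 2 weeks was lost without MHCII-high replicate 1. The median log2 difference of the 7 was 2.28 at 2 weeks and 2.08 at 4 weeks, beside 0.08 and -0.03 for all tested genes.

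In MHCII-low cells at 2 weeks against control, Ms4a6c alone was called, beside 1.48% of all genes called higher, a call lost without control replicate 3. Ms4a6b, Ms4a6c and Ms4a6d lay above both controls and Tmem176a below both, beside 13.7% and 21.6% of all genes. At 4 weeks none of the 7 was called against control, beside 0.046% of all genes. Ms4a6c had an unadjusted p under 0.05, and edgeR and DESeq2 also called 0. Between 2 and 4 weeks none was called by limma or edgeR in either class, beside 1.07% of all genes for MHCII-high and 0.857% for MHCII-low cells. At an unadjusted p under 0.05 there were 3 for MHCII-high (Ms4a7, Ms4a6c and Ms4a6d) and 2 for MHCII-low cells (Tmem176a and Ms4a6c), and DESeq2 called 1 in each. Median log2 changes from 2 to 4 weeks were -0.73 for MHCII-high and -0.33 for MHCII-low cells, beside -0.07 and 0.03 for all genes. For the difference of the MHCII effect between the times limma and edgeR called 0 of the 7, DESeq2 called 1 (Tmem176a), and 2 had an unadjusted p under 0.05 (Tmem176a and Ms4a7). The comparisons share libraries and are not independent.

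Levels were set side by side per kilobase of deposited exon length, among the 21 genes with a Tmem176 or Ms4a symbol described here. Ms4a6d and Ms4a8a, a family member induced in alternatively activated macrophages, held the top places in every group. Ms4a6d read 702.7 ± 165.1 normalized counts per kb in the controls (SD, n = 2) and 1632 ± 287.4 in MHCII-high cells at 2 weeks (SD, n = 3). In MHCII-high cells Tmem176a came next at 2 weeks and Tmem176b next at 4 weeks. Tmem176a read 564.6 ± 146.5 and Tmem176b 412.5 ± 74.5 per kb at 2 weeks, and 354.2 ± 149.4 and 481.7 ± 130.4 at 4 weeks (SD, n = 3). The gap between both genes was smaller than the sum of their SDs at each time. In MHCII-low cells at 2 weeks they read 26.2 ± 8.94 and 27.9 ± 14.3. The deposited exon length of Tmem176a is 1119 bases, while its GENCODE exons cover 3810, so its level per kb depends on which is taken.

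The other 14 genes with an Ms4a symbol were chosen by name. Of these, 7 passed the filter and were tested: Ms4a15, Ms4a8a, Ms4a1, Ms4a14, Ms4a4a, Ms4a4b and Ms4a2. Ms4a10, Ms4a18, Ms4a13, Ms4a12, Ms4a5, Ms4a4d and Ms4a3 did not. At 2 weeks limma called 2 of the tested genes between MHCII-high and MHCII-low cells, beside 2.87% of all genes in either direction, and at 4 weeks 1, beside 2.5%. Ms4a4a passed the filter only through MHCII-high libraries, 4 of them, whereas Ms4a1 and Ms4a14 also reached 10 normalized counts in 2 and 6 MHCII-low libraries.

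Ms4a8a went the other way from the genes above at 2 weeks. It read 1878.3 and 2058.4 in the controls, 2651.3, 2388.6 and 2918.8 in the MHCII-low libraries of 2 weeks, and 2709.0, 2938.3 and 3805.1 at 4 weeks. In MHCII-high cells it read 1189.1, 1309.1 and 1692.4 at 2 weeks and 2393.4, 2491.5 and 4177.2 at 4 weeks. All 3 MHCII-high libraries at 2 weeks were below every other library. Ms4a8a fell by 0.94 ± 0.21 (log2; limma adjusted p = 0.017) in MHCII-high against MHCII-low cells at 2 weeks and differed by -0.09 ± 0.21 at 4 weeks (limma adjusted p = 0.89). Within MHCII-high cells it rose by 1.08 ± 0.21 from 2 to 4 weeks (limma adjusted p = 0.015). The difference between the times in the MHCII effect, 0.84 ± 0.30, did not pass (limma adjusted p = 0.68).

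Ms4a14 read 153.8 to 581.6 in MHCII-high cells at 2 weeks against 9.6 to 22.0 in MHCII-low cells, a log2 rise of 4.17 ± 0.95 (limma adjusted p = 0.017). At 4 weeks it read 214.4, 22.0 and 51.1 against 12.9, 1.0 and 13.9, with no overlap, and the difference of 3.09 ± 0.95 missed the threshold (limma adjusted p = 0.096). Ms4a4a, a gene of alternatively activated macrophages whose product associates with the beta-glucan receptor Dectin-1, read 24.7, 27.0 and 29.5 in MHCII-high cells at 2 weeks and no more than 5.5 in the MHCII-low libraries. Since only MHCII-high libraries brought Ms4a4a into the fit, its log2 difference at 2 weeks, 4.11 ± 1.14, is given as a description. Ms4a1 rose at 4 weeks by 5.63 ± 1.45 (limma adjusted p = 0.040), from 38.6, 0 and 0 in MHCII-low to 210.2, 508.3 and 43.8 in MHCII-high cells. At 2 weeks it read 237.7, 10.6 and 46.9 in MHCII-high cells, and the difference of 3.41 ± 1.45 did not pass (limma adjusted p = 0.25). Ms4a2 and Ms4a15 did not exceed 29.1 and 13.2 normalized counts in any library, and Ms4a4b, a T-lymphocyte gene, did not exceed 32.9.

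These calls rest on few libraries. The count of 2 at 2 weeks became 0 without MHCII-low replicate 1 or MHCII-high replicate 1 or 2 of that time, and 1 without MHCII-low replicate 2 or 3. The call of Ms4a1 at 4 weeks was lost without MHCII-low replicate 2 or 3 or MHCII-high replicate 1 of that time, or without MHCII-low replicate 2 or 3 or MHCII-high replicate 3 at 2 weeks, which enter through the shared spread. The change of Ms4a8a over time in MHCII-high cells was lost without MHCII-high replicate 1 or 2 at 2 weeks.

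**Figure D4:**
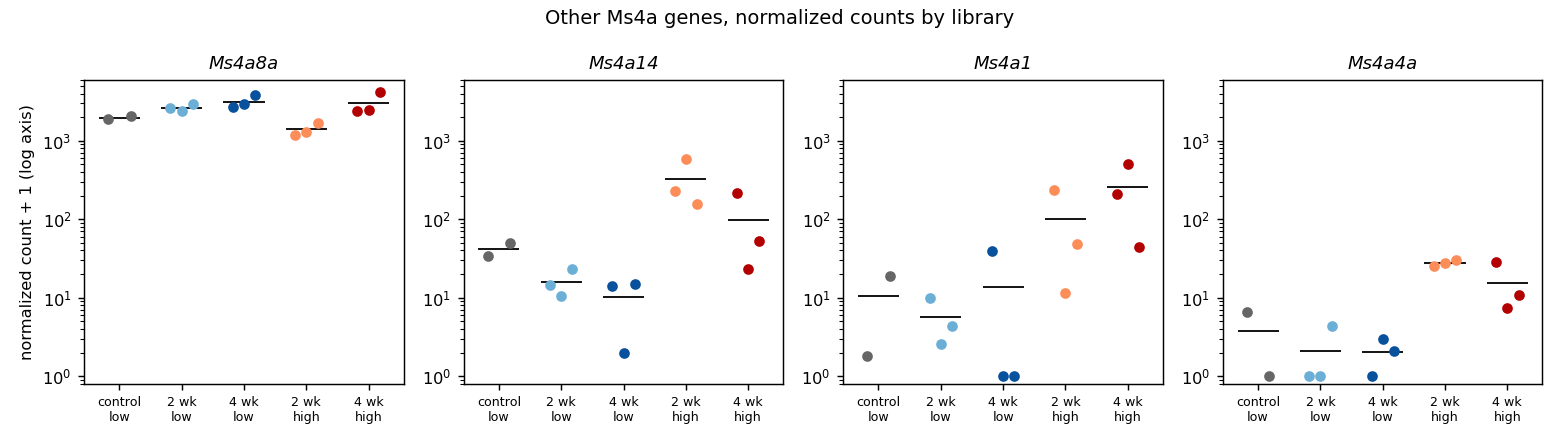
Normalized counts + 1 (log axis) of 4 other Ms4a genes in each library, with group means as lines (n = 2 for control, n = 3 for the others). Ms4a8a is lowest in MHCII-high cells at 2 weeks, while Ms4a14, Ms4a1 and Ms4a4a are higher in MHCII-high than in MHCII-low cells of the same time.

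Along chromosome 19, the tested Ms4a genes whose MHCII-high libraries all lay above the MHCII-low ones ran from Ms4a1 to Ms4a6b. Ms4a4b, with overlap and a log2 difference of -0.52 ± 1.37 at 2 weeks, lay among them. The nearest tested gene at either side, Ms4a8a and Ms4a6d, had differences of -0.94 and 0.40 at 2 weeks and -0.09 and 0.25 at 4 weeks. In this stretch Ms4a7, Ms4a4c, Ms4a6c and Ms4a6b are members, picked with such results known. Ms4a4c and Ms4a4a passed the filter only through MHCII-high libraries. The stretch thus partly describes the choice and the filter. Of all tested genes, 12.9% at 2 weeks and 8.26% at 4 weeks lay wholly higher in MHCII-high cells. The 26 other genes within 250 kb of the Ms4a members, 9 of them tested, included none called by limma in 7 comparisons. At most 2.87% of all tested genes were called in any comparison, so 0 is near that share for 9 genes. Of the 63 tests, 12 had an unadjusted p under 0.05, some of them tests of BE692007, which overlaps Ms4a6c. Over all 17390 genes, 987 to 2675 had such a p in a comparison.

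**Figure D5:**
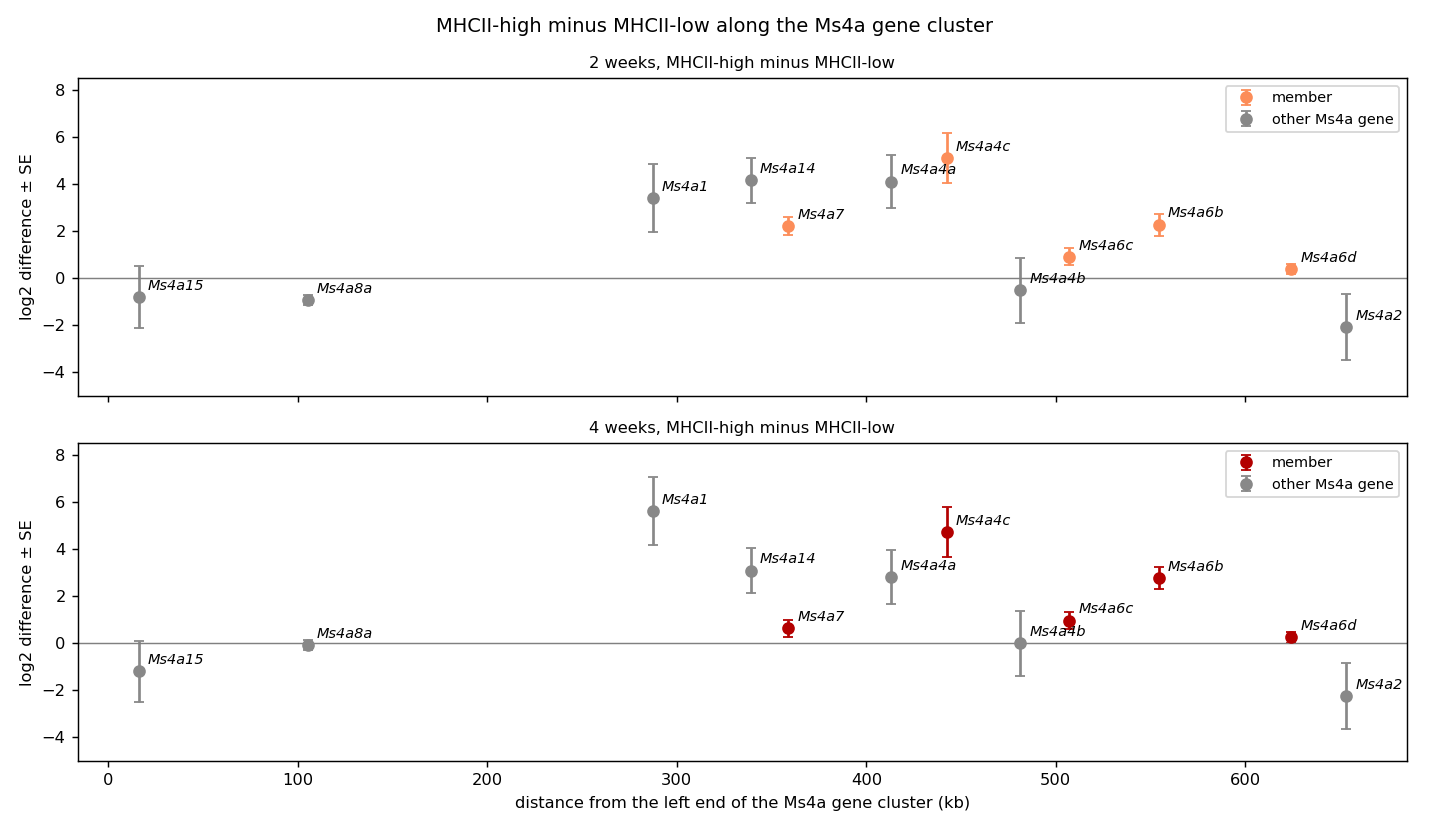
Log2 differences ± SE, MHCII-high minus MHCII-low, of the tested Ms4a genes against their distance from the left end of the cluster, at 2 weeks (top) and 4 weeks (bottom). The values from Ms4a1 to Ms4a6b are above 0 except those of Ms4a4b.

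RNA was read for 12 tested genes of receptor and inflammasome signalling, to which some MS4A and TMEM176 members have been linked. They were receptors and adaptors (Trem2, Tyrobp, Clec7a, Clec4e) and inflammasome parts and their products (Nlrp3, Casp1, Pycard, Il1b, Il1a, Il18, Gsdmd, Nek7). That each product works with a member is not claimed. Of the 12, limma called 0 between MHCII-high and MHCII-low cells at 2 or 4 weeks, beside 2.87% and 2.5% of all genes. For 12 genes a count of 0 is near those shares. At an unadjusted p under 0.05 there were 1 at 2 weeks and 3 at 4 weeks. The medians were -0.03 and -0.05 (log2), beside 0.08 and -0.03 for all genes. Against control in MHCII-low cells, limma called 1 of the 12 higher at 2 weeks, beside 1.48% of all genes. It called 0 at 4 weeks, beside 0.046%. The gene called at 2 weeks was Tyrobp, the signalling adaptor of TREM2, which rose by 0.72 ± 0.18 (limma adjusted p = 0.044). From 2 to 4 weeks limma called 2 of the 12 in each class, both lower. Of all genes 1.07% (MHCII-high) and 0.857% (MHCII-low) were called in either direction. Il1b, the cytokine released after inflammasome activation, fell by 1.37 ± 0.30 from 2 to 4 weeks in the MHCII-high class and by 1.69 ± 0.30 in the MHCII-low class (limma adjusted p = 0.028 and 0.0039). Clec4e, a receptor for damaged cells and mycobacterial lipids, fell by 1.29 ± 0.25 and 1.23 ± 0.25 (limma adjusted p = 0.015 in both).

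Tetraspanins, other multi-pass membrane organisers, and Fc receptor subunits made a list of 16 genes, 15 tested. Limma called 0 between MHCII-high and MHCII-low cells at 2 weeks, with 3 at an unadjusted p under 0.05. At 4 weeks it called 1 (Tspan13, log2 1.21 ± 0.28, limma adjusted p = 0.018). Over all genes 2.87% and 2.5% were called, so these counts are near what the shares give for 15 genes. Against control at each time, and from 2 to 4 weeks in each class, limma called 1 of the 15, each time Cd63. Of all genes 1.48% were called higher against control at 2 weeks and 0.046% were called at 4 weeks. From 2 to 4 weeks the shares were 1.07% (MHCII-high) and 0.857% (MHCII-low). Cd63, a tetraspanin of late endosomes, rose in MHCII-low cells against control by 2.66 ± 0.24 at 2 weeks and 1.39 ± 0.24 at 4 weeks (limma adjusted p = 4.5e-07 and 0.029). Cd63 fell from 2 to 4 weeks by 1.02 ± 0.21 (MHCII-high) and 1.28 ± 0.21 (MHCII-low; limma adjusted p = 0.021 and 0.0020). Its highest means, 4072 and 3426 normalized counts, were those of the MHCII-high and MHCII-low groups at 2 weeks, the groups with the highest means of Ms4a6c and Ms4a6d too.

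Markers of other cell types moved with the same gate. Of 13 dendritic-cell genes, 5 at 2 weeks and 6 at 4 weeks were called higher in MHCII-high cells, beside 2.29% and 1.96% of all genes, and the list summed to 3562 to 7228 normalized counts in MHCII-high against 283.8 to 655.5 in MHCII-low libraries. Flt3, a defining dendritic-cell gene, averaged 157.0 against 5.97 at 2 weeks and 232.3 against 0.567 at 4 weeks. Without Ccl22, which macrophages also express, the list summed to 1302 to 2829 against 115.1 to 389.5. Of 9 B-lymphocyte genes, 8 of them tested, 2 at 2 weeks and 4 at 4 weeks were called higher. Ms4a1 is itself on this list. The 8 genes without Cd22, which stood at 8651 to 13880 normalized counts in all libraries, summed to 804.5 to 3892 in MHCII-high and 40.5 to 2187 in MHCII-low libraries. Cd79b averaged 127.3 in MHCII-high cells at 4 weeks and was listed at 0 in all 3 MHCII-low libraries. Genes near 0 in MHCII-low cells can enter the test through MHCII-high libraries alone. The dendritic-cell and B-lymphocyte calls are therefore given as a description. Of 19 genes of monocyte-derived or interstitial macrophages, 9 and 10 were called higher. At 2 weeks this list summed to 114600 to 132900 in MHCII-high against 77680 to 100700 in MHCII-low libraries. At 4 weeks the sums were 75850 to 85230 against 55340 to 71510, and in the controls 53150 and 53430. Of 18 alveolar macrophage genes, 9 and 5 were called lower, beside 0.581% and 0.535% of all genes, among them Siglecf (log2 -0.95 ± 0.15 and -1.02 ± 0.15). The part of these cell types in the levels of the Tmem176 and Ms4a genes was not tested.

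Lists for T or NK lymphocytes, mast cells or basophils, neutrophils, eosinophils, epithelium, and fibroblasts or endothelium gave other counts. At 2 weeks 3 of 8 tested epithelial genes were called higher in MHCII-high cells, beside 2.29% of all genes. Called lower were 1 of 8 tested T or NK genes (Cd2) and 1 of 4 tested eosinophil genes, beside 0.581% of all genes. The eosinophil gene was Siglecf, shared with the alveolar macrophage list. At 4 weeks 1 epithelial gene was called higher (Sftpc, a surfactant protein gene, log2 3.21 ± 0.53, limma adjusted p = 0.0009), and Siglecf was again lower. Of all genes 1.96% were called higher and 0.535% lower at that time. The epithelial list summed to 6055 to 14800 normalized counts in MHCII-high against 4790 to 12190 in MHCII-low libraries at 2 weeks, and to 7934 to 17250 against 21370 to 29440 at 4 weeks. Most of the 4-week sum in MHCII-low cells was Scgb1a1, a club-cell secretory gene, at 21670 on average against 4882 in MHCII-high cells (log2 -2.21 ± 0.73, limma adjusted p = 0.13). Limma called 0 of the 19 tested genes of mast cells, neutrophils, and fibroblasts or endothelium between the classes at either time. Of all genes 2.87% at 2 weeks and 2.5% at 4 weeks were called, so 0 of 19 is near those shares. An unadjusted p under 0.05 was found in 2 of the 38 tests. The defining eosinophil gene Prg2 was at 0 in every library, and Cd3d was at most 9.0 normalized counts. Other genes of these lists were counted. The 9 T or NK genes other than Cd2 summed to 64.5 to 545.1 in MHCII-high and 55.4 to 305.2 in MHCII-low libraries. Of the 4 tested eosinophil genes, 1 lay wholly higher in MHCII-high cells at 2 weeks, beside 12.9% of all genes.

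The genes whose profiles over the 14 libraries were most like the mean of the 7 were Plxnb2 (Pearson's r 0.98), C3ar1, H2-Ab1, H2-Aa and Ccr2 (0.97), and Cmklr1, Cd74 and Ciita (0.96), among 10393 candidates. H2-Ab1 and H2-Aa encode the MHCII chains on which the cells were sorted, Cd74 their invariant chain, and Ciita their transcriptional activator. C3ar1 and Cmklr1 are receptors for complement and chemerin, and Ccr2 is the chemokine receptor of inflammatory monocytes. Stxbp5 (0.95), Sh3pxd2a (0.94) and Abca9 (0.94) were most like Tmem176b, and Fam46c (0.93), Rgag4 (0.90) and Tbc1d4 (0.90) most like Ms4a7. The 14 libraries fall into MHCII-high and MHCII-low sets, so each r mainly reflects that division. Abca9, a lipid transporter gene, averaged 4534 and 4876 normalized counts in MHCII-high cells at 2 and 4 weeks against 908.0 in the controls, whereas Fam46c averaged 1593 and 997.7 against 356.6.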

How the data were processed

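RNA-seq libraries came from 14 sorted samples in 5 groups. The authors deposited normalized counts per gene, a signal made from gene counts. STAR, DESeq2 and mm10 are named in the submitters' processing notes, without roles. The labels' protocols describe amplified cDNA and transposase-made libraries, with no molecular identifiers. From the values, each column held multiples of the worth of 1 read (0.3895 to 2.2374 normalized counts), and 99.96% to 100% of tested low values came out whole within 0.05. GC percent and exon length were used as deposited by the authors. The authors' mean column was not used: it matched the mean of the 14 libraries within 0.1 for 23663 of 43432 genes.

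Since the values are normalized, limma 3.58.1 (R 4.3.3, mean-variance trend) was fitted to log2(value + 1), with a coefficient per group, over the 17390 genes that reached 10 normalized counts in 2 or more libraries, with Benjamini-Hochberg adjustment over all of them. The fit was tested on simulated data. edgeR 4.0.16 and DESeq2 1.42.0 on recovered reads were alternatives. The members and gene lists were chosen with earlier results of these data known. Named were all members, all tested Ms4a symbols, up to 3 genes of a list or neighbourhood with the smallest p in the comparison discussed, and the genes most like the members' profiles among those with a mean log2 level of at least 6. Flt3, Cd79b, Siglecf, Cd2 and the antisense gene BE692007 were named after their values were seen. Prg2 and Cd3d, named for their levels, and Cd22 and Ccl22, left out of list sums, were not named by that rule either. Promoter windows are from RefSeq, and Biopython 1.88 aligned them.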

Additional observations from a re-analysis of the deposited data

How the results depend on the processing

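No member difference that was called changed sign under any of the 26 alternatives. Of 1246 differences of single members recomputed, 1225 kept their side of the threshold, 17 were no longer called and 4 became called. Without 1 library at a time, the members called between MHCII-high and MHCII-low cells numbered 3 to 5 at 2 weeks and 2 to 4 at 4 weeks, and those called in MHCII-low cells at 2 weeks against control 0 to 1. The other Ms4a genes called then numbered 0 to 3 at 2 weeks, 0 to 1 at 4 weeks and 0 to 1 between times in MHCII-high cells. With no filter on low values, 0 other Ms4a genes were called between the classes at 2 weeks and 0 at 4 weeks. With the mitochondrial rRNA share as a covariate 1 was called at 2 weeks, and 0 at 4 weeks after removing a GC trend or with edgeR. DESeq2 called 2 members in MHCII-low cells at 2 weeks against control, and 1 for the change over time in MHCII-high cells, 1 in MHCII-low cells and 1 for the interaction. The cause was not tested. Ms4a4c was no longer called at 2 or 4 weeks with a filter at 50 normalized counts, with the covariate (log2 4.99 and 4.64, in place of 5.12 and 4.73) or with edgeR (5.79 and 6.21), and Tmem176a at 4 weeks was no longer called with library totals.

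Over all genes tested, calls between the classes ranged from 205 to 1055 at 2 weeks (499 in the limma fit) and from 266 to 911 at 4 weeks (434), with the highest counts from DESeq2. Against control they ranged from 127 to 665 at 2 weeks (332) and from 1 to 74 at 4 weeks (8). Between times they ranged from 64 to 638 in MHCII-high (186) and from 93 to 320 in MHCII-low cells (149), and for the interaction from 0 to 60 (0). Same-numbered MHCII-high and MHCII-low libraries deviated together with correlations of 0.02 to 0.11 at 2 weeks and 0.01 to 0.03 at 4 weeks. Differently numbered ones gave -0.12 to 0.08 and -0.03 to 0.02. With 3 libraries a group, such small values cannot tell whether a number marks the same animal. The numbers were not taken as pairs in the main fit. With the replicate number as a block, 5 members were called at 2 weeks and 4 at 4 weeks, and no call of a member changed. Groups of 2 or 3 libraries limit the precision, most of all against control. Low values such as those of Ms4a4c rest on 0 to 3 reads a library in MHCII-low cells.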

Other observations

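Of the 23 genes within 250 kb of Tmem176a and Tmem176b, 15 were tested. Over 7 comparisons limma called 4 of 105 tests, all of Gpnmb or Gimap6, and 20 had an unadjusted p under 0.05. Between MHCII-high and MHCII-low cells it called 0 at 2 weeks and 1 at 4 weeks, beside 2.87% and 2.5% of all genes. The median log2 differences of the 15 were -0.11 and -0.09. These counts are near what the shares give for 15 genes. Gpnmb, a glycoprotein gene of lipid-laden and repair-associated macrophages, stood at 43790 normalized counts on average in control MHCII-low cells and rose to 96070 at 2 weeks (log2 1.12 ± 0.18, limma adjusted p = 0.0011). It then fell from 2 to 4 weeks by 0.76 ± 0.16 in MHCII-low and by 0.77 ± 0.16 in MHCII-high cells (limma adjusted p = 0.024 and 0.025). Between MHCII-high and MHCII-low cells Gpnmb differed by -0.29 ± 0.16 at each time, which did not pass (limma adjusted p = 0.43). Gimap6, a small GTPase gene of lymphocytes, was higher in MHCII-high cells at 4 weeks, 139.4 against 3.87 normalized counts on average (log2 5.25 ± 0.92, limma adjusted p = 0.0018). At 2 weeks Gimap6 averaged 75.3 against 41.8 and did not pass (limma adjusted p = 0.80).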
